A study of Mus musculus with 6 samples.

Results

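The transcripts described here are 10 genes of the BCL2 family, which sets whether a cell lives or enters apoptosis: the pro-survival genes Bcl2, Bcl2l1 and Mcl1, the effector genes Bax and Bak1, and the BH3-only genes Bcl2l11, Bad, Bid, Bbc3 and Pmaip1. They were chosen by name as a canonical set, with earlier results of these data known. Each was found once among the 23359 gene symbols of the expression table. RNA was measured in 6 libraries of mouse bone marrow from stranded preparations of polyadenylated transcripts. Of these, 3 carried the label GAB2 WT (+/+; WT A to WT C) and 3 the label GAB2 NULL (-/-; NULL A to NULL C). GAB2 is a docking adaptor that links cytokine receptors and the BCR-ABL1 oncoprotein to SHP2, ERK and phosphatidylinositol 3-kinase, and the series concerns its part in transformation by BCR-ABL1. The sources used here do not give strain, age and sex of the mice, the way the null allele was made, any sorting or culture of the cells, or whether these samples carried BCR-ABL1. No separate animals are named in the labels, and the p-values therefore refer to the spread among these libraries, which may be technical. Within each group, values of a gene are given in the order A, B and C.

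In healthy cells BCL2, BCL-XL (the protein of Bcl2l1) and MCL1 hold BAX and BAK in check at the mitochondrial outer membrane. BH3-only proteins such as BIM (Bcl2l11), PUMA (Bbc3), NOXA (Pmaip1), BAD and BID carry stress signals to the family by binding the pro-survival proteins or, in some cases, BAX and BAK directly. Once freed, BAX and BAK form pores that release cytochrome c, which starts the caspase cascade. B-cell precursors pass through stages that differ in which pro-survival protein they need, and cytokine receptors, STAT5 and FOXO factors are among the known regulators of these genes.

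Values are FPKM, fragment numbers set against transcript length and library size, and a change is the difference of log2(FPKM + 1), NULL minus WT, with limma's adjusted p over the 9916 genes that averaged 1 FPKM or more. All 10 members passed that limit, Bbc3 only through its level in NULL. At an adjusted p under 0.05, 6 of the 10 members were called, against 65.3% of all tested genes. Of these, 4 rose in NULL, where 23.3% of all tested genes rose, and 2 fell, where 42.0% of all tested genes fell. The groups did not overlap for 6 of 10 members, compared with 71.0% of all tested genes. The share of members called was therefore close to the background. The median change of the 10 members was 0.13 and that of all tested genes was -0.13.

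Gab2 measured 3.33, 3.10 and 2.43 FPKM in the WT libraries and 0.123, 0.145 and 0.203 FPKM in the NULL libraries. Depth was uneven, roughly 17.9 to 68.4 M fragments as judged from the steps between low values, and WT B was the shallowest. Summed FPKM was uneven as well, from 314192 in NULL C to 581658 in WT C. Small RNA genes held 6.06%, 13.45% and 31.5% of summed FPKM in the WT libraries and 29.1%, 30.1% and 8.68% in the NULL libraries. Of all calls, 64.3% were lower as deposited, but 50.7%, 53.7%, 32.7% and 31.1% after median-of-ratios scaling, quantile normalization, common-total scaling and common-total scaling that omits small RNA genes. The median change of all genes was then 0.010, -0.030, 0.12 and 0.20. Summed over 15 B-lineage marker genes the libraries held 2299 to 2548 FPKM in WT and 3638 to 3825 FPKM in NULL. Of 14 tested markers 11 rose, beside 23.3% of all tested genes. All 12 proliferation genes fell as deposited, with a median of -1.13, beside 42.0% of all tested genes. Under the other scalings 10 to 12 fell. The neutrophil genes Elane, S100a8 and S100a9 were listed at 0 in every library and 9 neutrophil genes together reached at most 0.658 FPKM, so the defining transcripts of the main myeloid cell of marrow were at or near 0. Hbb-b1, an adult beta-globin gene of red cells, read 8.31, 7.21 and 58.7 FPKM in the WT libraries and at most 0.000359 FPKM in any NULL library, and was lower under all 5 scalings. WT C held the most of it. Reads of Hbb-b1 and its near-identical copy Hbb-b2 cannot be divided with certainty. The part of these cell types and of proliferation in the results on the BCL2 family was not tested. In RNA pooled over many cells, fewer cells of a type and less RNA per cell cannot be told apart.

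**Figure D1:**
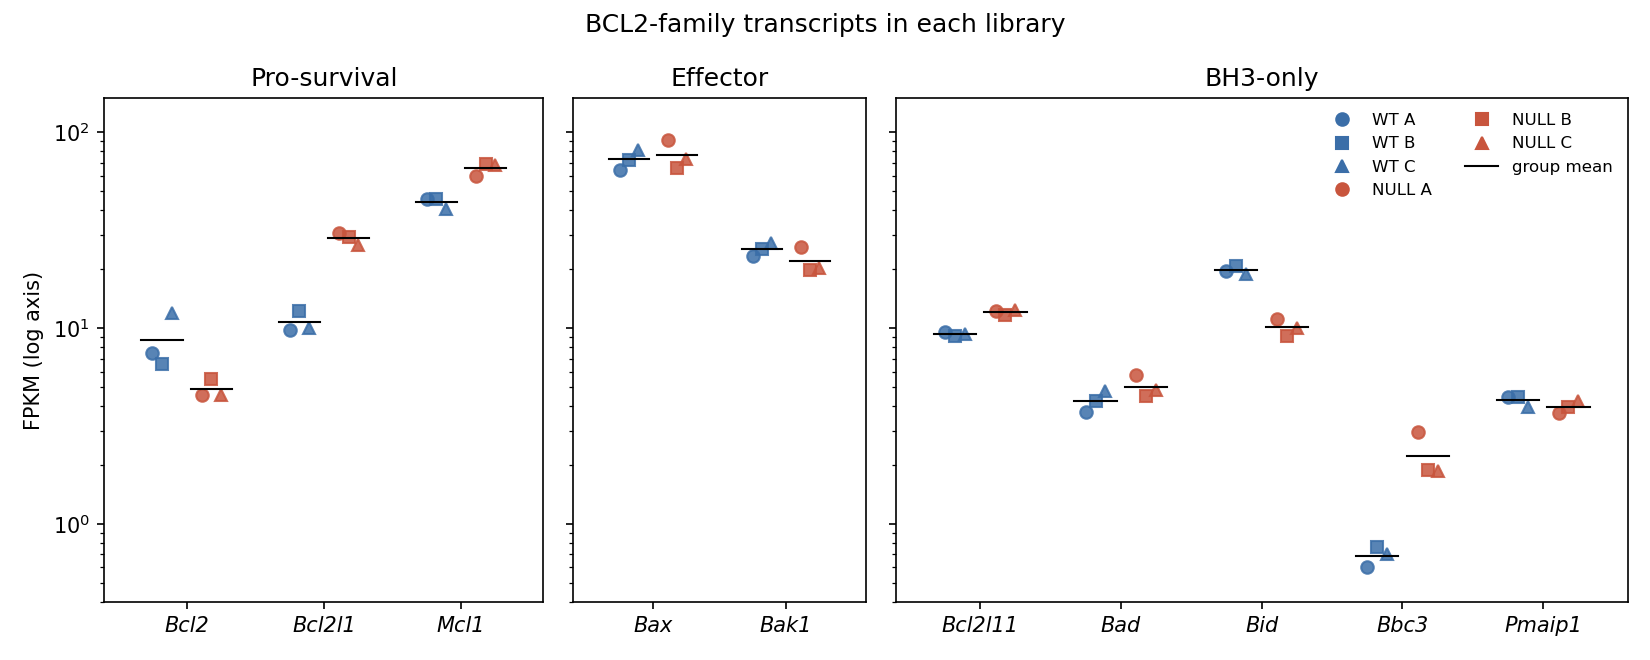
FPKM of the 10 genes on a log axis, by class, with 1 point per library and a bar for the mean of each group. Bcl2l1, Mcl1, Bcl2l11 and Bbc3 lie higher in every NULL library than in any WT library, Bcl2 and Bid lie lower, and the points of Bax, Bak1, Bad and Pmaip1 overlap.

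The pro-survival genes moved in opposite directions. Bcl2l1 and Mcl1 rose in NULL and Bcl2 fell, so that 3 of 3 were called, beside 65.3% of all tested genes. Bcl2l1 encodes BCL-XL, a long-lived protein that sustains small pre-B cells and erythroid cells. It measured 9.75, 12.3 and 10.1 FPKM in the WT libraries and 30.6, 29.1 and 26.7 FPKM in the NULL libraries. Every NULL library stood above every WT library by a wide gap. The means were 10.7 ± 1.37 FPKM (SD, n = 3) and 28.8 ± 2.001 FPKM (SD, n = 3), a ratio of 2.69. The limma change was 1.35 (SE 0.097, adjusted p = 3.24e-05), larger than that of 97.9% of all tested genes. It was the only member with a called change of at least 1 in size, which 9.93% of all tested genes had.

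Bcl2l1 lies on the minus strand of chromosome 2 at chr2:152780668-152831728 in GRCm38 and is annotated as protein coding. RefSeq gives it 3 start sites, and the 250 bases before the outermost of them (chr2:152831729-152831978, GRCm38.p6, minus strand) are shown because this gene had the largest change of the set on the log2(FPKM + 1) scale. Matches on either strand to the FOXO core GTAAAC, the STAT motif TTCNNNGAA, the E-box CACGTG and the p53 half-site are in capitals in the sequences of this and later genes, and no base of those shown lies in an annotated exon of the gene.

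Bcl2l1 upstream: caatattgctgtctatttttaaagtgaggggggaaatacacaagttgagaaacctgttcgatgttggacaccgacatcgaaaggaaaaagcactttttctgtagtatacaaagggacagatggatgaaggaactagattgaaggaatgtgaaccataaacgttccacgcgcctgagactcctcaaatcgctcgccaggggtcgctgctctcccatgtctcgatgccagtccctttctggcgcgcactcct

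None of these 4 motifs was present in it. The bases before the innermost start site (chr2:152828490-152828739) held the FOXO core from position -87 (position -1 being the last base before the start), within an annotated exon of the gene. Across the members, 15 such stretches from 9 genes were available. The STAT motif was found in 0 of them and in 7.02% of all 32851 stretches of the same length. The FOXO core was found in 3 of 15 stretches against 6.92% of all, the E-box in 2 against 6.02%, the SP1 box GGGCGG in 10 against 32.7%, and the p53 half-site in 1, that of Bax, against 7.13%. A match describes letters only and does not show that a factor binds.

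Mcl1 encodes a short-lived pro-survival protein on which haematopoietic cells at most stages depend. Its levels were 45.9, 45.6 and 40.8 FPKM in the WT libraries and 59.6, 68.7 and 68.1 FPKM in the NULL libraries. It was the most abundant of the 3 pro-survival transcripts in all 6 libraries, and no NULL library reached down to a WT value. The means rose from 44.1 ± 2.91 to 65.5 ± 5.10 FPKM (SD, n = 3 each), with a limma change of 0.56 (SE 0.083, adjusted p = 0.00068). The gene lies at chr3:95658788-95663176 on the plus strand.

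Bcl2, the founding member of the family and a survival factor of lymphocytes, went the other way. It read 7.48, 6.59 and 11.9 FPKM in the WT libraries and 4.55, 5.53 and 4.54 FPKM in the NULL libraries. WT C, the library richest in Hbb-b1, was far above the other WT libraries, though the lowest WT value still exceeded the highest NULL value. The change was -0.68 (SE 0.189, limma adjusted p = 0.0139). Without WT C it was -0.45 (adjusted p = 0.00602), and the call was lost under common-total scaling and under the form that omits small RNA genes (adjusted p = 0.131 and 0.0913). Bcl2 spans chr1:106538178-106714274 on the minus strand, where its exons share 497 bases with the antisense gene D630008O14Rik. Whether the counting of these stranded libraries used the strand is not known from the sources used here.

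Together the make-up of the pro-survival transcripts shifted. Their summed level was 63.2, 64.5 and 62.8 FPKM in the WT libraries and 94.8, 103.4 and 99.3 FPKM in the NULL libraries. Bcl2l1 made up 15.4% to 19.0% of that sum in WT and 26.8% to 32.3% in NULL. The share of Bcl2 was 10.2% to 19.0% in WT and 4.57% to 5.35% in NULL, and Mcl1 held 64.9% to 72.7% and 62.9% to 68.6%. Shares within a library do not change when that library is rescaled by a single factor, but they can change under quantile normalization. The Bcl2 and Bcl2l1 shares thus separated the groups and the Mcl1 share did not.

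**Figure D2:**
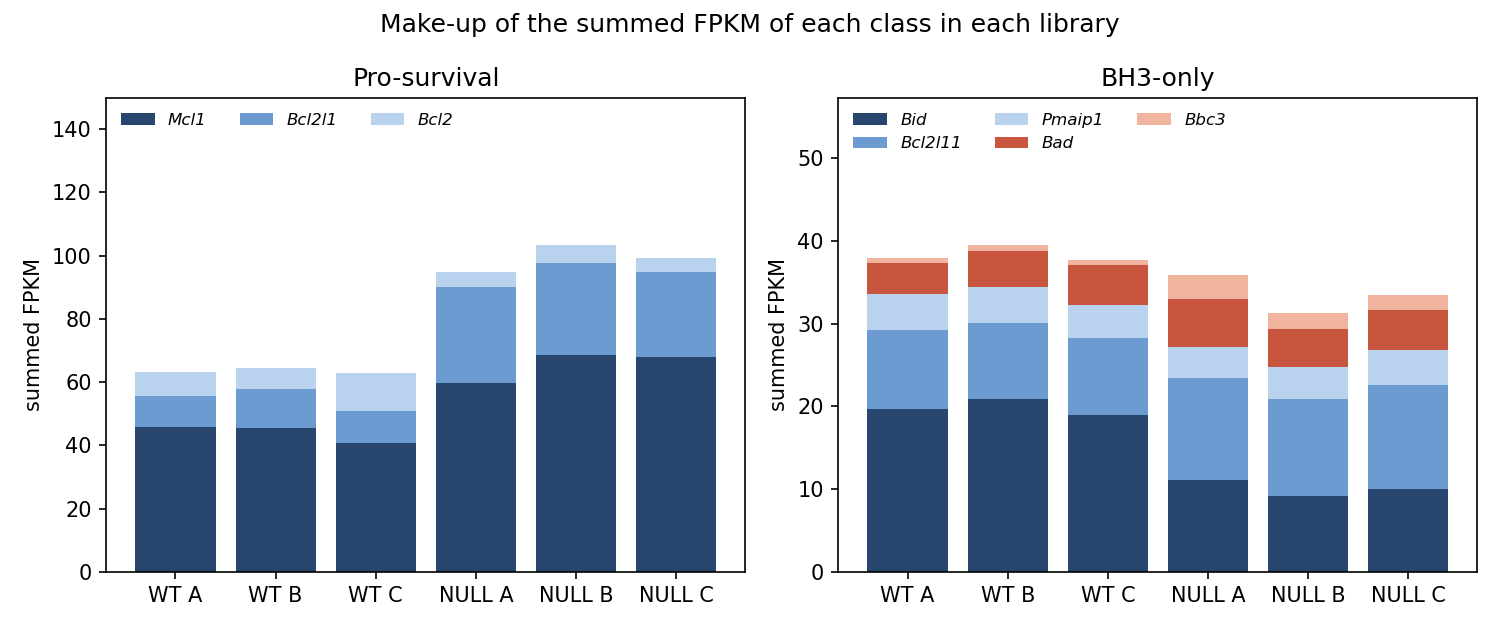
Summed FPKM of the 3 pro-survival genes (left) and the 5 BH3-only genes (right) in each of the 6 libraries, 1 bar per library, with segments for the genes. The pro-survival bars are taller in NULL (94.8 to 103.4 FPKM) than in WT (62.8 to 64.5 FPKM) through the Bcl2l1 and Mcl1 segments, and in the BH3-only bars the Bid segment is smaller in NULL.

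Neither effector gene was called. Bax, whose protein moves from the cytosol to mitochondria when activated, was at 64.7, 72.3 and 81.8 FPKM in the WT libraries and at 91.3, 66.0 and 73.0 FPKM in the NULL libraries. The groups overlapped, with NULL A the highest library and WT A the lowest. Its change was 0.066 (95% interval -0.25 to 0.38, limma adjusted p = 0.685), and it turned to -0.064 without NULL A and to -0.016 without WT A. Bax was called higher after quantile normalization (0.53, adjusted p = 0.00238) and under common-total scaling that omits small RNA genes (0.44, adjusted p = 0.00477). The gene lies at chr7:45461697-45466898 on the minus strand, on the chromosome that carries Gab2, and shares up to 140 exon bases with the same-strand gene Gm45808.

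Bak1 encodes BAK, which sits in the mitochondrial membrane from the start. Its transcript read 23.3, 25.3 and 27.2 FPKM in the WT libraries and 25.9, 19.9 and 20.4 FPKM in the NULL libraries. NULL A lay among the WT values and the other NULL libraries lay below them. The change was -0.20 (95% interval -0.45 to 0.061, limma adjusted p = 0.153). Without NULL A it was -0.31 and was called (adjusted p = 0.0155), while 3 rescalings turned its sign (0.070 to 0.17) without a call. Bak1 lies at chr17:27019810-27029009 on the minus strand and shares up to 257 exon bases with Ggnbp1 on the opposite strand, which stayed at or below 0.639 FPKM in every library. The summed effector level overlapped between the groups, at 88.0 to 109.0 FPKM in WT and 85.9 to 117.1 FPKM in NULL.

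The 5 BH3-only genes split 3 ways: Bcl2l11 and Bbc3 rose, Bid fell, and Bad and Pmaip1 were not called. Bcl2l11 encodes BIM, which binds all pro-survival members and is a main mediator of death after cytokine withdrawal. It was at 9.56, 9.15 and 9.32 FPKM in the WT libraries and at 12.3, 11.7 and 12.5 FPKM in the NULL libraries. The spread within each group was small, and the groups lay well apart. The means were 9.34 ± 0.206 and 12.2 ± 0.391 FPKM (SD, n = 3 each), and the change was 0.35 (SE 0.059, limma adjusted p = 0.00132).

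Bcl2l11 spans chr2:128126038-128162547 on the plus strand. The 250 bases before its outer start site (chr2:128125788-128126037, plus strand, GRCm38.p6) are shown because they hold the FOXO core, from position -227.

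Bcl2l11 upstream: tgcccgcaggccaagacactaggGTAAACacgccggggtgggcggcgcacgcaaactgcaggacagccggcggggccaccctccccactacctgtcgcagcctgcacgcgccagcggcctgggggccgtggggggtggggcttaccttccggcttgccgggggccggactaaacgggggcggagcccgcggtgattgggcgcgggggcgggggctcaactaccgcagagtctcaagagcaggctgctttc

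Bbc3 encodes PUMA, a p53 and FOXO target that also binds every pro-survival protein. It had the lowest level of the 10 genes in all 6 libraries, 0.604, 0.762 and 0.704 FPKM in the WT libraries and 2.95, 1.89 and 1.86 FPKM in the NULL libraries. Every NULL value was above every WT value, and NULL A was the highest. The mean rose from 0.690 ± 0.0802 to 2.23 ± 0.621 FPKM (SD, n = 3 each), a ratio of 3.24, which the log2(FPKM + 1) scale compresses to 0.92 (SE 0.134, limma adjusted p = 0.000608). With a pseudocount of 0.1 the change was 1.54. Bbc3 spans chr7:16308393-16318205 on the plus strand. The stretch before the second of its 3 start sites (chr7:16310011-16310260, plus strand, GRCm38.p6) is shown because it, too, holds the FOXO core, here on the opposite strand and from position -166. It lies inside the span of the gene but in no annotated exon.

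Bbc3 upstream: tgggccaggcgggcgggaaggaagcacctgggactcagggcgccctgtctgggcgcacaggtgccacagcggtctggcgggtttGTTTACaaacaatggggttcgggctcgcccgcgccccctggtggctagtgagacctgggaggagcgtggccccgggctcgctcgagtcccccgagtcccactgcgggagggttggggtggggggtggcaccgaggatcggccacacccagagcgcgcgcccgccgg

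Bid encodes a protein that is cut by caspase 8 and then carries the death receptor signal to mitochondria. It read 19.6, 20.9 and 18.9 FPKM in the WT libraries and 11.1, 9.15 and 10.1 FPKM in the NULL libraries. All NULL libraries were far below all WT libraries. The mean went from 19.8 ± 0.990 to 10.1 ± 1.001 FPKM (SD, n = 3 each), the largest fall of the set, with a change of -0.91 (SE 0.082, limma adjusted p = 6.96e-05). Bid lies at chr6:120891930-120916853 on the minus strand and shares up to 628 exon bases with Bcl2l13 on the opposite strand, which changed by -0.20.

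Bad, whose protein is kept inactive by AKT phosphorylation and 14-3-3 binding, measured 3.73, 4.26 and 4.79 FPKM in the WT libraries and 5.77, 4.53 and 4.82 FPKM in the NULL libraries. The groups overlapped, and the change was 0.20 (95% interval -0.050 to 0.45, limma adjusted p = 0.137). It was called higher under 2 rescalings, median-of-ratios scaling (0.33, adjusted p = 0.0198) and common-total scaling that omits small RNA genes (0.51, adjusted p = 0.00106). Up to 517 of its exon bases at chr19:6941861-6951899 are shared with Gpr137 on the opposite strand, which rose from 1.48 ± 0.652 to 3.24 ± 0.488 FPKM (SD, n = 3 each; limma adjusted p = 0.00543). The part of Gpr137 reads in the Bad values was not tested.

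Pmaip1 encodes NOXA, which binds mainly MCL1 and marks it for degradation. It was at 4.43, 4.43 and 3.98 FPKM in the WT libraries and at 3.71, 3.95 and 4.26 FPKM in the NULL libraries. The groups overlapped closely, with a change of -0.087 (95% interval -0.26 to 0.088, limma adjusted p = 0.338). The sign turned to 0.040, 0.14 and 0.22 under 3 rescalings, with no call.

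Summed over the 5 BH3-only genes, the level was 38.0, 39.5 and 37.7 FPKM in the WT libraries and 35.9, 31.2 and 33.5 FPKM in the NULL libraries. Bid made up 50.2% to 52.9% of that sum in WT and 29.3% to 31.1% in NULL. Bcl2l11 held 23.2% to 25.2% in WT and 34.3% to 37.5% in NULL, and Bbc3 1.59% to 1.93% and 5.56% to 8.22%. Per unit of pro-survival transcript, the BH3-only sum was 0.601, 0.612 and 0.601 in the WT libraries and 0.379, 0.302 and 0.337 in the NULL libraries. The effector sum per unit of pro-survival transcript was 1.39 to 1.74 in WT and 0.831 to 1.24 in NULL. Both quotients were lower in every NULL library than in any WT library. Neither changes when a library is rescaled by a single factor, but both can change under quantile normalization. The BH3-only sum itself does change with such rescaling. That sum, and so its quotient, leaves out Bmf, another BH3-only gene. Bmf read 1.38, 1.22 and 1.06 FPKM in the WT libraries and 7.12, 7.35 and 7.31 FPKM in the NULL libraries. Sums with Bmf or under other scalings were not computed. Sums of transcripts say nothing about protein, since BAD, BID, BIM and MCL1 are regulated after translation.

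**Figure D3:**
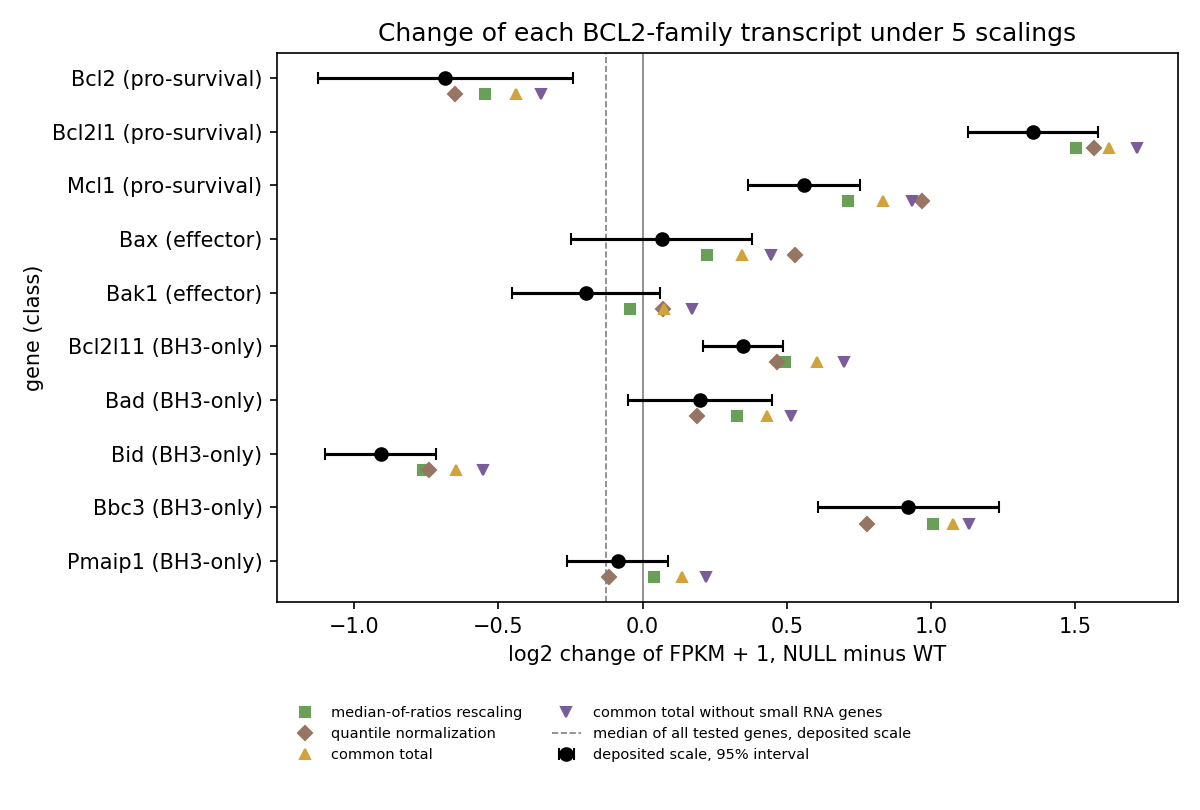
Change of each gene in log2(FPKM + 1), NULL minus WT, on the deposited scale (black, with 95% limma intervals) and, just below, under 4 other scalings. Bcl2l1, Mcl1, Bcl2l11 and Bbc3 stay above 0 and Bcl2 and Bid below 0 under all 5, while Bak1 and Pmaip1 lie on both sides of 0.

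Since the scaling of the libraries moved the median gene, 7 ratios between members of the same library were compared as well. The smallest p that an exact permutation test can give for 3 libraries against 3 is 0.1. All 7 ratios separated the groups and gave that p (exact two-sided permutation test, p = 0.1, and adjusted p = 0.1 over the 7). The test therefore cannot pass 0.05 here. Of single tested genes 71.0% separated the groups, and the share among ratios of other gene pairs was not computed.

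Among pro-survival genes, Bcl2l1 stood to Bcl2 at 1.30, 1.86 and 0.845 in the WT libraries and at 6.73, 5.26 and 5.87 in the NULL libraries. In WT the 2 transcripts were thus at similar levels, with Bcl2 the higher in WT C, and in all NULL libraries Bcl2l1 was several times the more abundant. This ratio was 4.66-fold higher in NULL. Bcl2l1 per Mcl1 went from 0.243 ± 0.0287 to 0.443 ± 0.0634 and Bcl2 per Mcl1 from 0.200 ± 0.0809 to 0.0745 ± 0.00712 (SD, n = 3 each).

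The ratio of Bcl2l11 to its pro-survival partners depended on the partner. Per Bcl2l1 it was 0.980, 0.745 and 0.925 in the WT libraries and 0.402, 0.403 and 0.468 in the NULL libraries. Per Bcl2 it was 1.28, 1.39 and 0.781 in WT and 2.71, 2.12 and 2.75 in NULL. BIM transcript was therefore lower relative to Bcl2l1 and higher relative to Bcl2 in the NULL libraries. Bax per Bak1 was 2.77, 2.86 and 3.01 in WT and 3.53, 3.33 and 3.58 in NULL, whereas the levels of each of the 2 genes overlapped between the groups. Bbc3 per Pmaip1 went from 0.162 ± 0.0222 to 0.570 ± 0.196 (SD, n = 3 each).

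**Figure D4:**
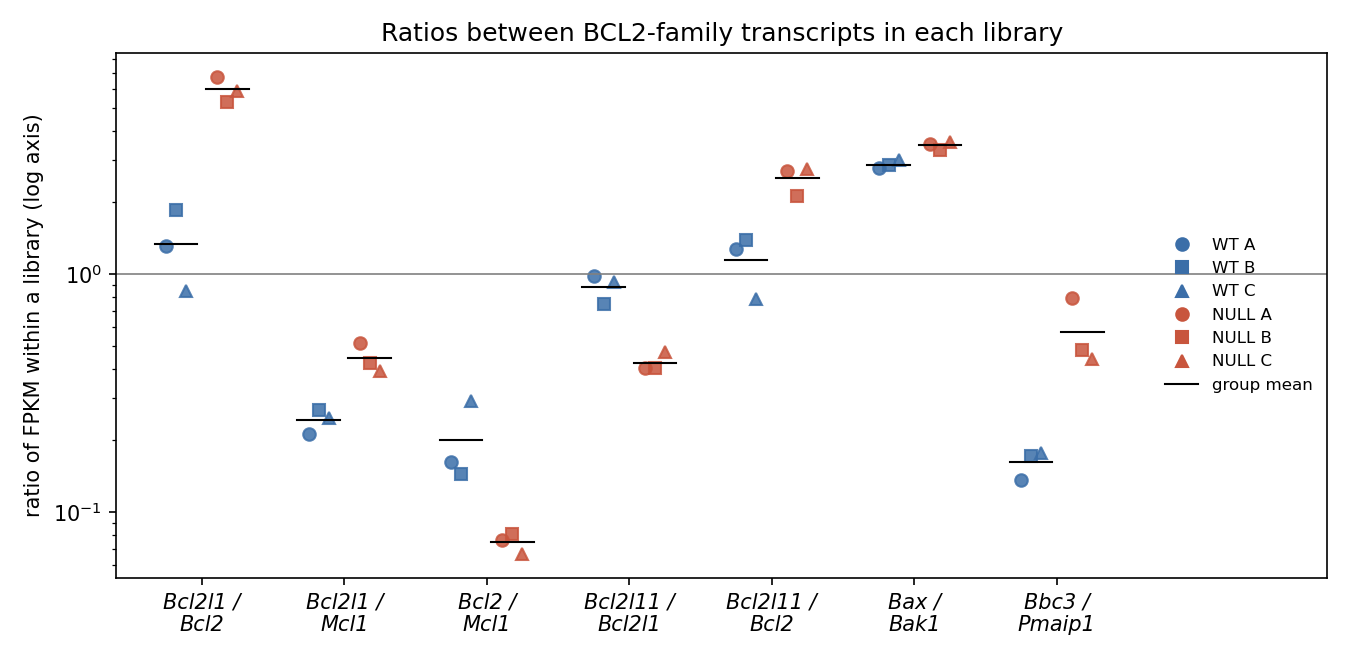
Ratio of the FPKM of 2 genes within each library on a log axis, 1 point per library, with bars for group means. WT and NULL points separate in all 7 ratios, and the widest gap is that of Bcl2l1 to Bcl2, from 0.845 to 1.86 in WT and from 5.26 to 6.73 in NULL.

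The order of levels changed with the group. In WT the means ran from Bax (72.9 FPKM) through Mcl1 (44.1), Bak1 (25.3) and Bid (19.8) to Bcl2l1, Bcl2l11 and Bcl2 (10.7, 9.34 and 8.67), Pmaip1 and Bad (4.28 and 4.26) and Bbc3 (0.690). In WT the values of Bcl2 overlapped with those of both Bcl2l1 and Bcl2l11, and Pmaip1 overlapped with Bad, while every Bcl2l1 value lay just above every Bcl2l11 value. In NULL, Bax and Mcl1 (76.8 and 65.5 FPKM) overlapped, Bcl2l1 (28.8) had moved above Bak1 (22.0), and Bcl2l11 (12.2) above Bid (10.1). Bad and Bcl2 (5.04 and 4.87 FPKM) overlapped there, followed by Pmaip1 (3.97) and Bbc3 (2.23).

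**Figure D5:**
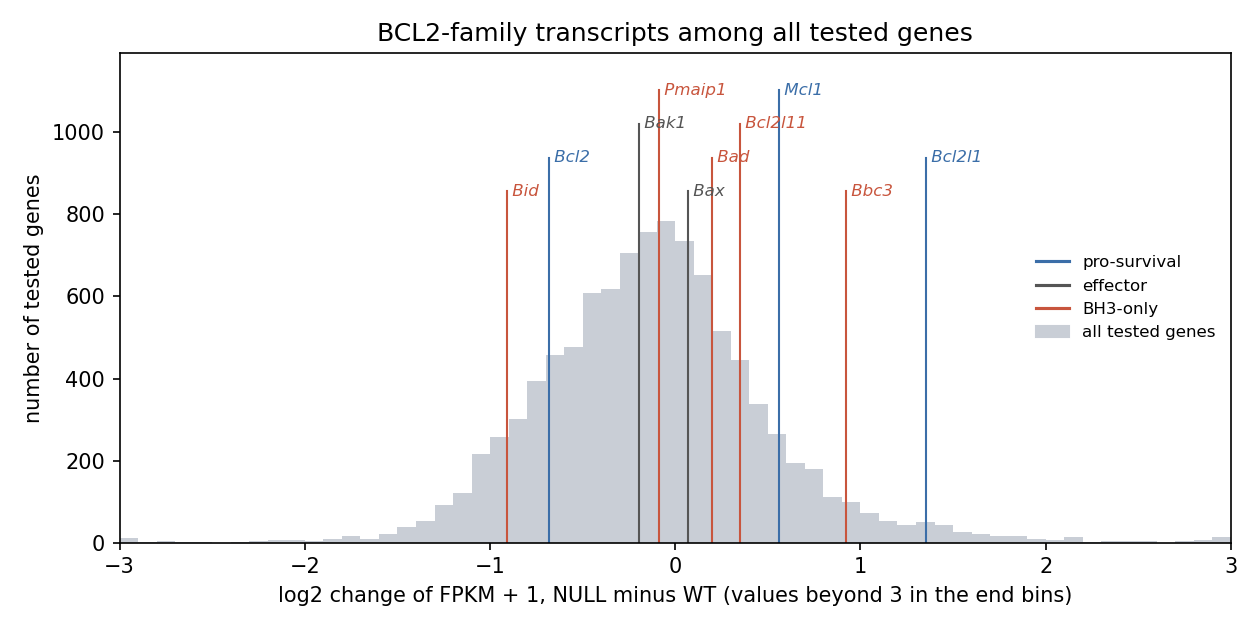
Histogram of the change in log2(FPKM + 1), NULL minus WT, over the 9916 tested genes, with lines at the 10 members. Bcl2l1 at 1.35 lies in the upper tail, Bid at -0.91 lies in the lower part, and Bax, Bak1, Bad and Pmaip1 lie near the middle.

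Beyond these 10 genes, 16 further family members were examined, of which 7 reached a mean of 1 FPKM. Of these 2 rose and 3 fell (median -0.19), beside 23.3% and 42.0% of all tested genes. Bmf, a BH3-only gene whose protein is held at the cytoskeleton, rose most, from 1.38, 1.22 and 1.06 FPKM in the WT libraries to 7.12, 7.35 and 7.31 FPKM in the NULL libraries. Its limma change of 1.90 (SE 0.077, adjusted p = 7.05e-06) exceeded that of each of the 10 members. Bcl2l2, which encodes the pro-survival protein BCL-W, rose from 4.24 ± 0.275 to 8.22 ± 0.410 FPKM (SD, n = 3 each). Bok, a BAX-like gene, fell from 5.61 ± 1.08 to 2.92 ± 0.607 FPKM. Bmf, Bcl2l2 and Bok kept their calls under all 5 scalings. Bnip3, a mitophagy receptor, changed by -1.48 (limma adjusted p = 0.0106), and by -0.96 without WT C (limma adjusted p = 0.000108), where it read 133 FPKM. Bcl2l13 at -0.20 was called under 1 of 5 scalings and kept its call in 1 of 6 fits that each left out a library. The 4 Bcl2a1 paralogs, near-identical genes between which reads cannot be divided with certainty, were listed at 0 in WT and did not exceed 0.105 FPKM in any NULL library.

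Downstream of the mitochondria, 3 of 16 tested apoptosome, caspase and inhibitor genes rose and 6 fell, shares near the 23.3% and 42.0% of all tested genes. Cycs, the gene of cytochrome c, fell from 56.6 ± 1.66 to 24.0 ± 2.42 FPKM (SD, n = 3 each). Htra2, a mitochondrial protease, fell by 0.82 on the log2 scale. Birc2 and Birc3, which encode the ubiquitin ligases cIAP1 and cIAP2, both rose, Birc2 from 16.1 ± 1.24 to 35.3 ± 3.62 FPKM and Birc3 from 10.3 ± 0.632 to 18.0 ± 1.05 FPKM. Casp6 rose by 0.44. The counts were 4 and 4 after median-of-ratios rescaling, and 9 higher and 4 lower under common-total scaling that omits small RNA genes. Cycs, Birc2, Birc3 and Casp6 were called in the same direction under all 5 scalings, and Htra2 under 4.

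In the death receptor pathway 2 of 8 tested genes rose and 2 fell as deposited, beside 23.3% and 42.0% of all tested genes. After median-of-ratios scaling and after quantile normalization 5 rose and 2 fell. Under the 2 common-total scalings 2 and 5 rose and 0 fell. Tnfsf10, which encodes the ligand TRAIL, rose from 2.89 ± 0.774 to 5.51 ± 0.394 FPKM and the receptor gene Fas from 0.862 ± 0.142 to 1.87 ± 0.0370 FPKM (SD, n = 3 each). Fas passed the limit of 1 FPKM only through its level in NULL. The adaptor gene Fadd fell from 2.31 ± 0.140 to 1.40 ± 0.0547 FPKM and the TRAIL receptor gene Tnfrsf10b from 1.82 ± 0.0630 to 1.12 ± 0.132 FPKM. The calls of Fadd and Tnfrsf10b were lost under 2 of the 5 scalings. Casp8, whose product cuts BID, was not called at 48.5 ± 2.12 FPKM in WT and 43.8 ± 2.49 FPKM in NULL, though it was called higher under 1 of the 5 scalings.

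Genes whose proteins modify or bind the family fell in 13 of 21 cases and rose in 1, beside 42.0% and 23.3% of all tested genes. The riser was Pim1, a kinase that phosphorylates BAD, from 59.7 ± 5.12 to 118.5 ± 12.3 FPKM (SD, n = 3 each). The strongest decreases were those of the mitochondrial channel genes Vdac2, Vdac3 and Vdac1, by 0.97, 0.86 and 0.83 on the log2 scale, VDAC2 being known to bind BAK. The list's median was -0.47, and only 1 was called higher and 1 lower under common-total scaling, with 6 higher and 5 lower under common-total scaling that omits small RNA genes. Pim1 and Vdac2 were called in the same direction under all 5 scalings.

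Of the transcription factors known to act on members, 10 of 16 tested rose and 4 fell (median 0.31), beside 23.3% and 42.0% of all tested genes. In fits that each left out a library, 7 to 8 rose and 3 to 4 fell. The counts were 10 and 3, 8 and 1, 9 and 0, and 12 and 1 after median-of-ratios scaling, quantile normalization, common-total scaling and the form that omits small RNA genes. Ddit3, the gene of the stress factor CHOP, went from 5.02 ± 0.886 to 11.5 ± 0.407 FPKM, Myb from 98.4 ± 9.35 to 182.2 ± 9.73 FPKM and Foxo1 from 5.85 ± 1.92 to 10.4 ± 1.21 FPKM (SD, n = 3 each). Without WT C, which read 3.64 FPKM, the Foxo1 change fell from 0.78 to 0.52. E2f1, Myc and Atf4 decreased by 0.54, 0.48 and 0.40. These 3 were called under 4, 2 and 2 of the 5 scalings, and Atf4 changed sign. Trp53, the gene of p53, had overlapping groups, with WT at 31.9 ± 3.40 FPKM and NULL at 25.8 ± 2.22 FPKM (SD, n = 3 each). It was called lower under 1 of 5 scalings, and 2 of 6 fits that each left out a library kept the call.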

How the data were processed

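The authors deposited FPKM per gene symbol and library, in a table of the whole series with 23848 rows that differed from the library tables in 0 values. Bowtie, Cufflinks, mm10 and GRCm38 appear, without roles, per the submitters' processing notes, and no source used here gives the annotation or any scaling. For each of 256 repeated symbols the row of highest mean stayed in. Limma 3.58.1 in R 4.3.3 was fitted on log2(FPKM + 1) for the 9916 genes that averaged 1 FPKM or more, with trended moderation of variances, two-sided tests and Benjamini-Hochberg adjustment at 0.05. The pseudocount of 1 understates changes of weakly expressed genes. Since FPKM give no counts, neither a count model nor a counting interval could be used. The fit was tested on simulated data. Positions come from GENCODE vM21 (GRCm38) and upstream sequences from RefSeq (GRCm38.p6). Depth was approximated from the most common step of low values and the longest annotated transcript. The members and gene lists were chosen with earlier results of these data known. All 10 members are named, and from each list, per direction, the 3 called genes of largest change whose groups did not overlap, with Casp8, Trp53, the Bcl2a1 genes and genes overlapping a member for context. Results of some single genes that this rule names are left out. Lists for marker genes covered B-lineage, proliferation, neutrophil, monocyte and macrophage, erythroid, T and NK, megakaryocyte, stem and progenitor, and stroma and endothelial genes. Alternatives were 2 other pseudocounts, 2 other filters, 4 scalings, 2 moderation settings, a replicate block, summed rows and leaving out each library.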

Additional observations from a re-analysis of the deposited data

How the results depend on the processing

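Over 18 alternatives (17 for Bbc3, which misses the filter of 5 FPKM), Bcl2l1, Mcl1, Bcl2l11, Bbc3 and Bid kept their direction and their call, with changes of 1.11 to 1.71, 0.50 to 0.97, 0.26 to 0.70, 0.34 to 1.54 and -0.97 to -0.55. Bcl2 kept its direction in all 18 and its call in 16. The number of members called lower was 1 under common-total scaling, also when it omits small RNA genes, instead of 2, and 3 without NULL A. The number called higher was 6 under common-total scaling that omits small RNA genes, 5 after median-of-ratios scaling and after quantile normalization, and 3 with a filter of 5 FPKM, instead of 4. The sign of Bak1 turned to 0.070 after quantile normalization and to 0.074 and 0.17 after the 2 common-total scalings. That of Pmaip1 turned to 0.040 after median-of-ratios rescaling and to 0.14 and 0.22 after the common-total scalings. Bax lay between -0.064 and 0.17 when each library was left out. Over all genes, 1364 were called higher with a filter of 5 FPKM, where fewer genes were tested, 4516 higher and 2043 lower under common-total scaling that omits small RNA genes, and 999 lower under common-total scaling, against 2311 higher and 4168 lower as reported. The cause of the differences between scalings was not tested. All 7 ratios kept their direction in each alternative run. Depth is known only approximately. A replicate block on the letters A, B and C called 2050 genes higher and 3794 lower and changed no member's call. Deviations from group means correlated by 0.073, 0.355 and 0.133 for libraries sharing a letter, each library correlating best with its own letter, but the labels do not say that a letter marks a shared source.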

Other observations

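Markers of several other cell types were at low levels in these marrow libraries. Summed FPKM in WT and NULL were at most 0.255 and 0.446 for 7 T and NK cell genes, with Cd4 listed at 0 throughout, and at most 0.138 and 0.734 for 5 megakaryocyte genes. The 7 monocyte and macrophage genes summed to 1.53 to 2.13 FPKM in WT and 3.72 to 4.92 FPKM in NULL, with Cd14 at 0. Of these Lyz2, the lysozyme gene of myeloid cells, rose from 0.413 ± 0.154 to 2.85 ± 0.659 FPKM (SD, n = 3 each) and passed the limit of 1 FPKM only through NULL. Erythroid genes summed to 275.8 to 359.7 and 159.1 to 183.8 FPKM, most of it Tfrc, the transferrin receptor of dividing cells, while Hba-a1 and Slc4a1 were listed at 0. Hbb-b1 was the other tested gene of that list, with a change of -4.05 (limma adjusted p = 0.00121), and -3.13 without WT C (adjusted p = 9.71e-06). Its copy Hbb-b2 reached 8.64 FPKM in WT C and at most 0.265 FPKM in any other library. The stem and progenitor list held 7.45 to 10.2 and 8.25 to 12.2 FPKM, nearly all of it Ly6a. In the stroma and endothelial list, with 10.6 to 11.6 and 24.7 to 25.6 FPKM, Pecam1 made up nearly the whole sum while Col1a1 and Pdgfrb were at 0.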
